A study of Mus musculus with 6 samples.

Results

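Epithelial cells hold on to the basement membrane through integrins, and they secrete part of that membrane themselves as laminins. The genes described here are 6 integrin chains (Itga2, Itga3, Itga6, Itgb1, Itgb4 and Itgb6) and 3 laminin chains (Lama3, Lama5 and Lamb3). They were taken by symbol from a list and make up 9 of 53379 annotated genes. All 9 were matched, and all 9 passed the filter on low counts, which left 14537 genes. No expression value entered the choice, although results of these data were known when the list was drawn up.

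Total RNA was sequenced from 6 cultures of mouse pancreatic tumour organoids, small epithelial structures kept here in a Matrigel dome. The heterozygous cultures (n = 3) carried Trp53LSLR172H/+; Pdx1-Cre, and the LOH cultures (loss of heterozygosity, n = 3) carried Trp53LSLR172H/-; Pdx1-Cre. All 6 thus share the R172H allele of Trp53, the Cre and the strain label C57/Bl6, and the LOH cultures lack the remaining wild-type Trp53 allele. The labels give organoid lines 6, 23 and 34, each with 1 library of either genotype. The Pdx1 promoter, active in pancreatic progenitors, drives the Cre, and each line is a single organoid line. No label gives an age or states whether the lines came from different animals, so p-values measure the spread between these libraries. The descriptions of LOH cultures end in "Nut", which no label explains, and whatever it stands for cannot be told apart from genotype. Where 3 values are listed they are in the order of lines 6, 23 and 34.

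An integrin is a pair of 1 alpha and 1 beta chain that spans the plasma membrane. The pairs of alpha 3 or alpha 6 with beta 1, and of alpha 6 with beta 4, bind laminins. The alpha 6 beta 4 pair anchors keratin filaments at hemidesmosomes, alpha 2 beta 1 binds collagens and some laminins, and alpha V beta 6 binds latent transforming growth factor beta. A laminin is a trimer of 1 alpha, 1 beta and 1 gamma chain. The alpha 3 and beta 3 chains are part of laminin-332, the main ligand in hemidesmosomes, and the alpha 5 chain assembles with beta 1 or beta 2 and gamma 1 into laminins of most adult epithelial basement membranes. Laminin from the culture gel is itself a ligand, rich in the alpha 1 chain, which these cells hardly transcribed: Lama1 had at most 2 counts in any library.

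The libraries held 13680458 to 27917277 expected counts, and 3 counts were worth 0.1 to 0.223 CPM (counts scaled to effective library size with TMM). The 9 genes together took 1403 to 1772 CPM in heterozygous and 1466 to 2431 CPM in LOH cultures. The epithelial label held up: Epcam, Cdh1 and 4 keratin genes summed to 5180 to 5979 CPM in heterozygous and 5049 to 11136 CPM in LOH cultures, the highest being LOH line 34. Of 10 fibroblast markers 6 had 3 counts or fewer in all libraries and Col3a1 was at 0, with summed levels of 0.0742 to 0.167 CPM against 0.605 to 1.16 CPM. The 5 endothelial markers summed to 0.0334 to 0.1 against 0.373 to 2.62 CPM, with Emcn at 0. The 8 leukocyte markers summed to 1.93 to 2.37 against 3.26 to 14.9 CPM, with Adgre1 and Lyz2 at 0, and most of the sum was Cd68, a lysosomal protein also made outside leukocytes. The 5 acinar markers summed to 0.567 to 0.816 against 0.868 to 2.39 CPM, with Prss1 and Pnlip at 0. Trp53 itself ran from 76.3 to 86.5 CPM in heterozygous and from 47.4 to 73.5 CPM in LOH cultures (log2 fold change -0.47, SE 0.22, adjusted p = 0.227 in edgeR), and its gene counts do not tell the alleles apart. In bulk RNA, fewer cells of a type and less RNA per cell cannot be told apart.

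Compared per length, as TPM (transcript abundance scaled for length and depth) over all 6 libraries, the laminin-binding receptors came first. Itga3 averaged 119 ± 49.6 TPM (SD, n = 6), Itgb1 95.2 ± 13.6, Itga6 68.9 ± 29.2 and Lama5 32.7 ± 8.35 TPM. Then came Itga2 with 20.2 ± 10.7, Itgb4 with 19.1 ± 6.48, Lamb3 with 14.8 ± 6.94, Itgb6 with 5.46 ± 2.80 and Lama3 with 1.61 ± 2.06 TPM. Only Itga6 over Lama5 and Lama5 over Itga2 held in 6 of 6 libraries. Itga2 and Itgb4 had no order, with Itga2 above in 3 of 6, and each other pair of neighbours held in 5 of 6. In heterozygous line 23 Itga3 had 1.01 transcripts per Itgb1 transcript, with 7.6 TPM of Itga3 from the coding transcript Itga3-206. Without Itga3-206, Itga3 lay below Itgb1 in that library, as it did in LOH line 23. The Itga6 level includes the noncoding transcript Itga6-203, with 36.3% to 38.6% of its TPM, and the order of Itga6 over Lama5 rests on it. In LOH line 23 this transcript had 19.9 of 52.7 TPM, and Lama5 had 45.6 TPM. Without the transcript Itga6 lay below Lama5 in that library. The common partner Itgb1 varied least, with a coefficient of variation of 14.2%, and Lama3 most, with 128%.

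Lama3 was the only one of the 9 genes whose LOH libraries all lay on 1 side of the heterozygous ones, above them. In edgeR's quasi-likelihood test of genotype alone, 757 of 14537 genes passed an adjusted p of 0.05 (5.21%), and 0 of the 9 did. Once the line was added as a block, 213 genes passed (1.47%), and 1 of the 9, Lama3, did. At an unadjusted p under 0.05 the counts were 3681 genes (25.3%) and 1 of the 9, and DESeq2 called 2266 of 15925 genes (14.2%) and 1 of the 9, again Lama3 in both. The groups did not overlap in 32.8% of all genes tested, with LOH above in 16.4%. The log2 fold change was above 0 for 8 of the 9, with a median of 0.60, against a median of 0.06 and 7850 of 14537 above 0 over all genes tested. With limma on log2(TPM + 1), Itga2, Itga3, Itgb1 and Itgb4 were below 0, 4 of the 8 members with a value there, on a scale where the median of all genes was itself -0.36.

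**Figure D1:**
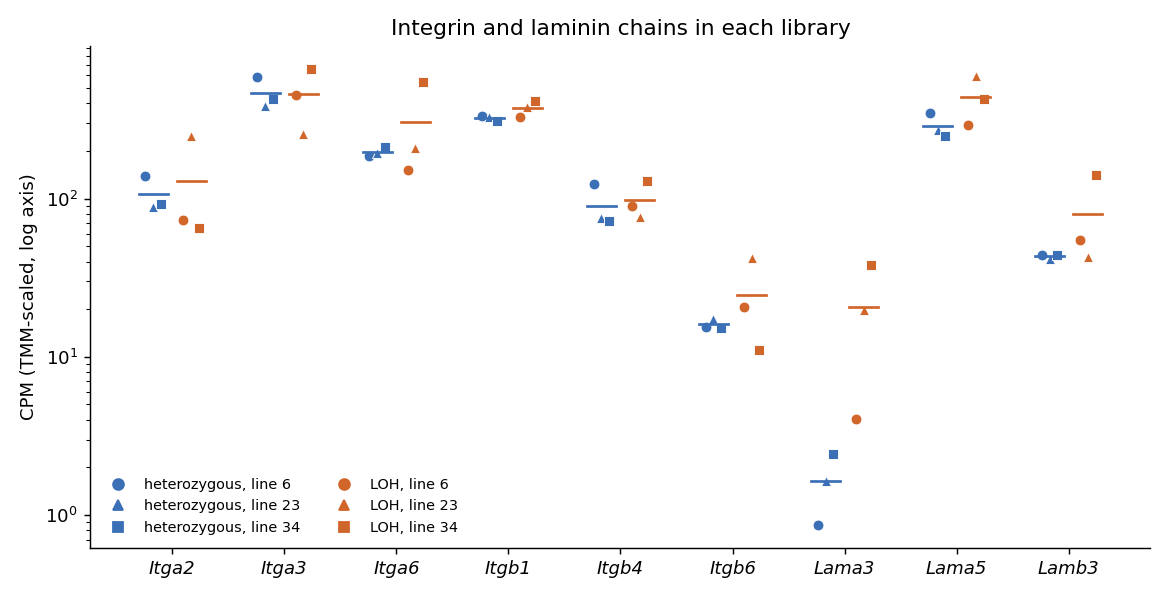
Level of each of the 9 chains in each library, in CPM scaled by TMM on a log axis. Blue marks are heterozygous and orange marks LOH libraries, the mark's shape gives the organoid line, and bars are group means. Lama3 is the only chain with all 3 LOH libraries above all 3 heterozygous libraries.

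Among the alpha chains of the integrins, Itga2, Itga3 and Itga6 showed no difference between genotypes that passed the test, and their LOH libraries were spread more widely than the heterozygous ones. Itga3 (ENSMUSG00000001507.16, chr11:95044474-95076801, minus strand, GRCm38), the alpha chain of the main epithelial laminin receptor, had 587, 385 and 425 CPM in heterozygous cultures and 453, 257 and 661 CPM in LOH cultures. LOH line 23 was the lowest of the 6 and LOH line 34 the highest, so the LOH group enclosed the other. Its log2 fold change was -0.03 (SE 0.36), with an adjusted p of 0.970 in edgeR.

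Itga6 (ENSMUSG00000027111.15, chr2:71745616-71858416, plus strand), the laminin-binding chain of hemidesmosomes, had 186, 195 and 212 CPM in heterozygous and 152, 207 and 548 CPM in LOH cultures. The heterozygous libraries were close together, and LOH line 34 alone stood far above them. The log2 fold change of 0.61 (SE 0.46), with an adjusted p of 0.431 in edgeR rested on that library and was -0.14 without it. Epithelial markers were also highest in LOH line 34, and their part in the Itga6 level was not tested. The gene model overlaps Gm13662 and Gm13663 on the same strand and Gm17250 and Gm13739 on the other.

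Itga2 (ENSMUSG00000015533.9, chr13:114833081-114932100, minus strand), the collagen-binding chain, had 139, 88.8 and 92.4 CPM in heterozygous and 72.9, 250 and 65.2 CPM in LOH cultures. Here LOH line 23 was the high library, while LOH lines 6 and 34 lay below all heterozygous ones. Between genotypes the log2 difference was 0.28 (SE 0.53, adjusted p = 0.773 in edgeR), and -0.63 without LOH line 23.

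None of the beta chains differed past the test either. Itgb1 (ENSMUSG00000025809.15, chr8:128685654-128733200, plus strand), which pairs with many alpha chains, had 330, 328 and 308 CPM in heterozygous and 327, 379 and 414 CPM in LOH cultures. The groups overlapped only through line 6, whose LOH library lay within the heterozygous range. Its log2 fold change was 0.21 (SE 0.17), with an adjusted p of 0.461 in edgeR. Itgb4 (ENSMUSG00000020758.15, chr11:115974709-116008412, plus strand), the hemidesmosomal chain with the long cytoplasmic tail, had 123, 75.6 and 72.1 CPM against 89.1, 76.8 and 128 CPM. In line 6 the heterozygous library was the higher one and in line 34 the LOH library, which left a log2 fold change of 0.12 (SE 0.30), with an adjusted p of 0.828 in edgeR. The gene overlaps B230344G16Rik on the other strand.

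Itgb6 (ENSMUSG00000026971.15, chr2:60598292-60722643, minus strand), an epithelial chain that pairs only with alpha V, had the lowest level of the 6 integrin members. It had 15.4, 17.4 and 15.3 CPM in heterozygous and 20.7, 42.2 and 11.1 CPM in LOH cultures. The LOH cultures lay on either side of a tight heterozygous group, and the log2 fold change was 0.62 (SE 0.45), with an adjusted p of 0.420 in edgeR. Without LOH line 23 it was -0.02.

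Lama3 (ENSMUSG00000024421.16, chr18:12333819-12583013, plus strand), the alpha chain of laminin-332, had 0.867, 1.63 and 2.44 CPM in heterozygous cultures, on 26, 22 and 73 counts. The LOH cultures reached 4.08, 19.7 and 37.8 CPM on 70, 521 and 811 counts. Every LOH library was above every heterozygous one, and LOH line 6 was nearest to them. The fold change was 12.4 (log2 3.64, SE 0.82), and edgeR's adjusted p was 0.0527 without a block and 0.0431 with the line as a block, where the log2 fold change was 3.29. DESeq2 gave an adjusted p of 1.95e-05. The edgeR adjusted p was 0.0163 without LOH line 6, 0.181 to 0.187 without any 1 heterozygous library and 0.286, the highest of the settings run, without both libraries of line 23. Cd68 had 1.70, 1.78 and 1.84 CPM in heterozygous and 2.97, 6.95 and 14.7 CPM in LOH cultures, so the lines ranked in Cd68 as they did in Lama3 within either group, and its part in the Lama3 difference was not tested. The gene overlaps Gm29201 on the same strand and Gm29199, Gm29200 and Gm22340 on the other.

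Lamb3 (ENSMUSG00000026639.18, chr1:193207699-193343878, plus strand), the beta chain of the same trimer, had 43.7, 41.4 and 44.2 CPM in heterozygous and 54.7, 43.0 and 141 CPM in LOH cultures. LOH line 34 was far above the rest, and LOH line 23 lay within the heterozygous range. For Lamb3 the log2 fold change was 0.89 (SE 0.44), with an adjusted p of 0.255 in edgeR, and 0.18 without LOH line 34. Hsd11b1, G0s2, Gm37650 and Gm38118 lie on the other strand within the gene model, and 4930570N18Rik and Gm37691 on the same strand.

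Lama5 (ENSMUSG00000015647.9, chr2:180176373-180225859, minus strand), the alpha chain of laminin-511 and laminin-521, was the laminin member with the highest level. It had 346, 270 and 247 CPM in heterozygous and 292, 595 and 424 CPM in LOH cultures. LOH lines 23 and 34 were above all heterozygous libraries, and LOH line 6 fell among them. Lama5 gave a log2 fold change of 0.60 (SE 0.29), with an adjusted p of 0.242 in edgeR. The gene model contains Mir7005.

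**Figure D2:**
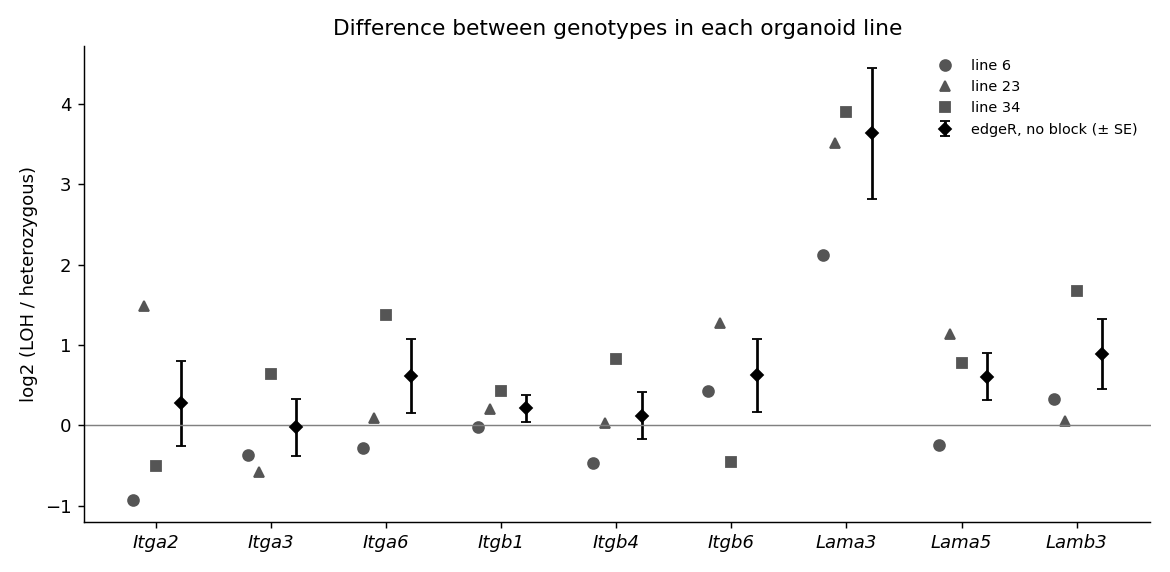
Difference between genotypes for each chain, as log2 of LOH over heterozygous CPM. Grey marks are the 3 organoid lines, and black diamonds with bars are the edgeR log2 fold change without a block and its standard error. Lama3 is far above 0 in all 3 lines, whereas 7 chains have lines on both sides of 0.

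Within the lines, Lama3 was higher in the LOH library by 2.13, 3.52 and 3.91 on the log2 scale, and Lamb3 by 0.32, 0.06 and 1.68. The other 7 chains did not keep 1 direction over the lines. Itga2 gave -0.93, 1.49 and -0.50, Itgb6 0.42, 1.27 and -0.46, and Itga3 -0.38, -0.58 and 0.64. Itga6 gave -0.29, 0.09 and 1.37, and Itgb4 -0.47, 0.02 and 0.83. Itgb1 gave -0.02, 0.21 and 0.43, and Lama5 -0.24, 1.14 and 0.78. Line 6 was thus the line in which 6 of these 7 chains, all but Itgb6, were lower in the LOH library. LOH line 34 was the highest of the 6 libraries for Itga3, Itga6, Itgb1, Itgb4, Lama3 and Lamb3 and the lowest for Itga2 and Itgb6. LOH line 23 was the highest for the other three, Itga2, Itgb6 and Lama5.

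A test of the organoid line with genotype held as a term called 0 of 14537 genes in edgeR (0%) and 0 of the 9 chains. At an unadjusted p under 0.05 it gave 389 genes (2.68%) and 1 of the 9, Lama3, with an unadjusted p of 0.0153. DESeq2 called 135 of 17595 genes (0.767%) between lines and 0 of the 9. The fit has 2 residual degrees of freedom.

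The partner chains that complete these receptors and laminins were read from the test of genotype alone, in which 3.55% of all genes tested rose and 1.66% fell. Of 8 other laminin chains 5 were tested, and 2 rose in LOH cultures, Lamb1 and Lamb2, whose products can join the alpha 5 chain. Lamb1 had 21.4, 19.2 and 22.6 CPM in heterozygous and 61.2, 251 and 134 CPM in LOH cultures, a 7.05-fold difference (log2 2.82, SE 0.49, adjusted p = 0.0295 in edgeR). Lamb2 had 39.9, 38.1 and 33.8 against 71.7, 80.7 and 80.5 CPM (log2 1.06, SE 0.17, adjusted p = 0.0255 in edgeR). The groups did not overlap for either gene, but with the line as a block the edgeR adjusted p was 0.0734 for Lamb1 and 0.0998 for Lamb2. Lamb2 did not pass in limma on log2(TPM + 1) either (log2 0.47, adjusted p = 0.13). Leaving out any 1 heterozygous library left no gene past the threshold in edgeR (2272 to 2966 had an unadjusted p under 0.05).

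Lamc1 and Lama4 did not pass the test. Lamc1, the gamma chain of laminin-511 and laminin-521, had 373, 264 and 239 CPM in heterozygous and 160, 217 and 135 CPM in LOH cultures (log2 -0.78, SE 0.26, adjusted p = 0.122 in edgeR), with every LOH library below every heterozygous one. Lama4, an alpha chain of vessels and stroma, had 2.5, 2.30 and 2.60 against 0.0582, 0.755 and 0.279 CPM (log2 -2.69, SE 0.73, adjusted p = 0.0784 in edgeR). It passed the filter through heterozygous cultures, where it is high. In LOH line 6 it lay under the 0.175 CPM that 3 counts were worth there, so the size of its fold change is uncertain.

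**Figure D3:**
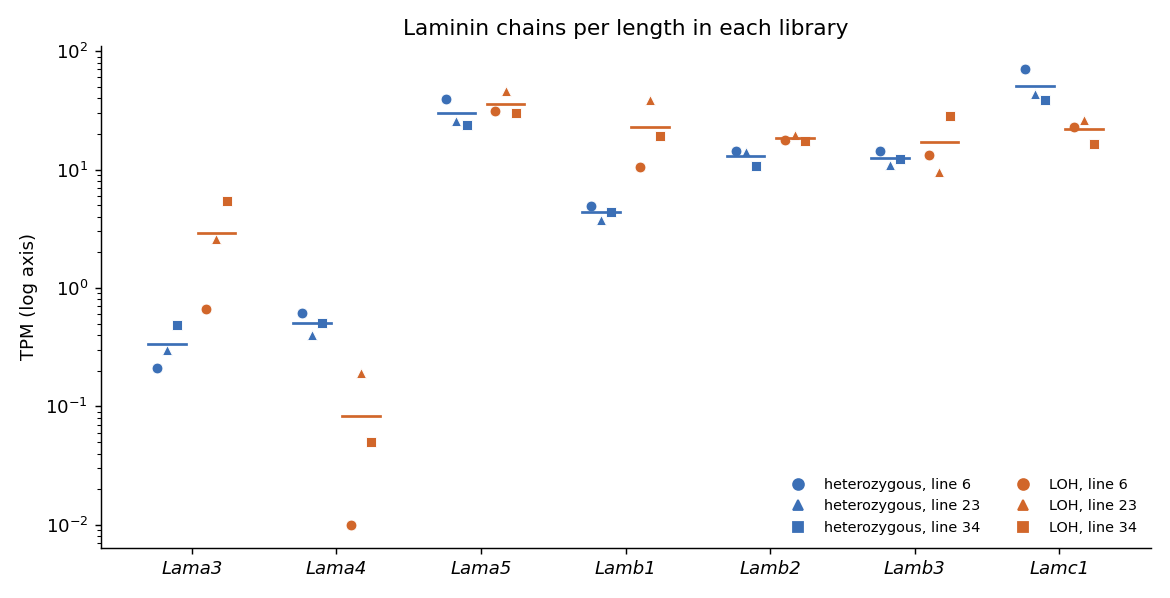
Laminin chains per length in each library, as TPM on a log axis. Colours, shapes and bars are as in the plot of CPM by library. The heterozygous means of Lama3 and Lama4 lie under 1 TPM, Lamb1 and Lamb2 lie higher and Lamc1 lower in all 3 LOH libraries, and Lama5 and Lamb3 overlap.

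Per length, Lama3 was far scarcer than Lamb3, its partner in laminin-332, in all libraries. Its TPM was 0.21, 0.30 and 0.49 in heterozygous and 0.66, 2.60 and 5.40 in LOH cultures. The TPM of Lamb3 was 14.4, 11.0 and 12.3 against 13.2, 9.49 and 28.6. Lama3 transcripts thus amounted to 0.0146, 0.0273 and 0.0398 per Lamb3 transcript in heterozygous and 0.0498, 0.274 and 0.189 in LOH cultures. The groups did not overlap, and the mean log2 ratio differed by 2.45 (exact two-sided permutation test, p = 0.1, the smallest that 3 against 3 libraries allow, adjusted p = 0.4 over 8 ratios, of which 7 are given).

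The order of Lama5 and its gamma partner Lamc1 per length differed between the groups. Lama5 had 0.559, 0.593 and 0.616 transcripts per Lamc1 transcript in heterozygous cultures and 1.36, 1.73 and 1.83 in LOH cultures. Lamc1 was above Lama5 in each heterozygous library and below it in each LOH library. The log2 ratio differed by 1.47, from -0.76 ± 0.07 to 0.70 ± 0.23 (SD, n = 3 each, exact permutation p = 0.1, adjusted p = 0.4). The difference was 1.28, 1.55 and 1.57 in lines 6, 23 and 34. In LOH line 6, 22.3% of the Lama5 TPM came from Lama5-202, a short noncoding transcript with 37.5 counts.

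**Figure D4:**
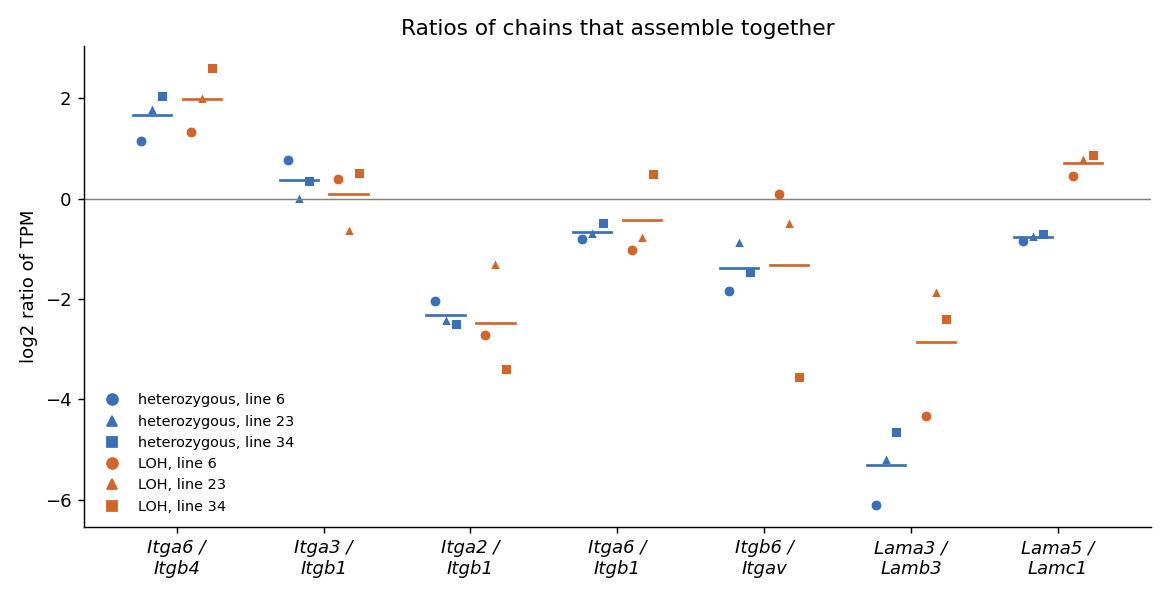
Ratios of TPM between chains that assemble with each other, as log2, in each library. Blue is heterozygous, orange is LOH, the mark's shape gives the line and bars are group means. Lama5 to Lamc1 and Lama3 to Lamb3 are the ratios whose groups do not overlap.

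The 5 ratios between integrin chains did not separate the groups. Itga6 stood at 2.23, 3.43 and 4.10 transcripts per Itgb4 transcript in heterozygous and 2.52, 4.01 and 6.08 in LOH cultures, where the mean log2 ratio was higher by 0.33 (exact permutation p = 0.5, adjusted p = 1). The ratio was higher in the LOH library of each line, by 0.18, 0.23 and 0.57 on the log2 scale, for which exact sign flips within lines give p = 0.25, the smallest possible. The difference between group means shrank to 0.013 when LOH line 34 was left out and to 0.075 when heterozygous line 6 was, and it was 0.65 when LOH line 6 was. Itga6 exceeded Itgb4 in all 6 libraries, and it exceeded Itgb1 only in LOH line 34, with 1.40 transcripts per Itgb1 transcript against 0.494 to 0.717 in the other five. The Itga6 ratios include the noncoding transcript Itga6-203, which took 36.3% to 38.6% of the Itga6 TPM. In LOH line 34 it had 45.8 of 124.8 TPM, and Itgb1 had 89.4 TPM. Without that transcript Itga6 lay below Itgb1 in LOH line 34 as well. Itga3 stood at 1.70, 1.01 and 1.28 per Itgb1 transcript against 1.31, 0.645 and 1.43 (log2 difference -0.29, exact permutation p = 0.7). Itga2 had 0.0944 to 0.407 transcripts per Itgb1 transcript (log2 difference -0.16, exact permutation p = 0.8).

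Itgb6 and its only partner Itgav did not vary together. Itgav had 94.1, 40.3 and 54.8 CPM in heterozygous and 29.2, 101 and 180 CPM in LOH cultures (log2 0.71, SE 0.62, adjusted p = 0.500 in edgeR). Per length, Itgb6 stood at 0.277, 0.550 and 0.364 per Itgav transcript in heterozygous and at 1.07, 0.709 and 0.0852 in LOH cultures. The ratio was the highest of all in LOH line 6 and the lowest of all in LOH line 34, and the log2 difference between group means was 0.07 (exact permutation p = 1).

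The alpha chains Itga3 and Itga6 are each made with 1 of 2 cytoplasmic tails, called A and B. In the transcripts of the A form the coding sequence ends inside an alternative exon, and transcripts of the B form skip that exon. The exon up to its stop codon is shown for both genes because it decides which tail is made. In Itga6 it is exon 25 of 26 of the A transcript (chr2:71853534-71853641, plus strand, GRCm38), and in Itga3 also exon 25 of 26 (chr11:95046480-95046590, minus strand). The full exons are 130 and 142 bases long. Capitals mark the stop codon.
Itga6: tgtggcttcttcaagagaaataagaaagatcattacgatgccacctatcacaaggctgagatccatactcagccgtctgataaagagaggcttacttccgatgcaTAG
Itga3: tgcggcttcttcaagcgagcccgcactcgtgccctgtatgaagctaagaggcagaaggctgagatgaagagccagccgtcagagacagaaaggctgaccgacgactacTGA

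Among the coding transcripts assigned to either form, those whose coding sequence ends in this exon predominated in both genes and in every library. The A form took 73.5%, 85.2% and 87.6% of the coding Itga6 TPM assigned to either form in heterozygous cultures, and 96.9%, 88.5% and 89.1% in LOH cultures. The LOH cultures all lay above the heterozygous ones, by 9.40 percentage points on average (82.1% ± 7.56 against 91.5% ± 4.66, SD, n = 3 each), and the exact permutation p of 0.1 is the smallest possible (adjusted p = 0.3 over 3 shares). Most of the gap came from line 6, with 23.4 points, against 3.37 in line 23 and 1.437 in line 34, and the mean difference was 5.09 points without heterozygous line 6. The noncoding transcript Itga6-203 also skips the exon, and counted with the B form, a choice made after the data were seen, it lowered the share to 45.4% to 58.7%.

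The coding sequence of Itga3 ended in the alternative exon in 97.6%, 93.0% and 96.0% of the TPM of either form in heterozygous and 96.8%, 97.1% and 98.2% in LOH cultures. The coding transcript Itga3-206, with 8.05% to 23.1% of the gene's TPM, was assigned to neither form and is not in these shares. The means differed by 1.85 points (exact permutation p = 0.3, adjusted p = 0.3), by 0.57 without heterozygous line 23 and by 2.87 without heterozygous line 6, and the groups overlapped. RSEM shares reads that fit several transcripts between them, so these percentages are estimates and not direct counts of the exon.

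Lama3 has a long and a short coding transcript, with 75 and 38 exons. The short form, which starts within the gene, took 100%, 93.3% and 100% of the TPM in heterozygous cultures and 92.4%, 77.7% and 98.0% in LOH cultures. The groups overlapped and the difference was -8.42 points (exact permutation p = 0.2, adjusted p = 0.3), or -2.58 without LOH line 23, -12.7 without LOH line 34 and -14.8 as a share of expected counts. The long form had 0, 2.08 and 0 expected counts in heterozygous and 10.1, 186 and 32.1 in LOH cultures, so it was mostly seen in LOH line 23. The short form had 26, 19.9 and 73 against 59.7, 335 and 779 expected counts.

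**Figure D5:**
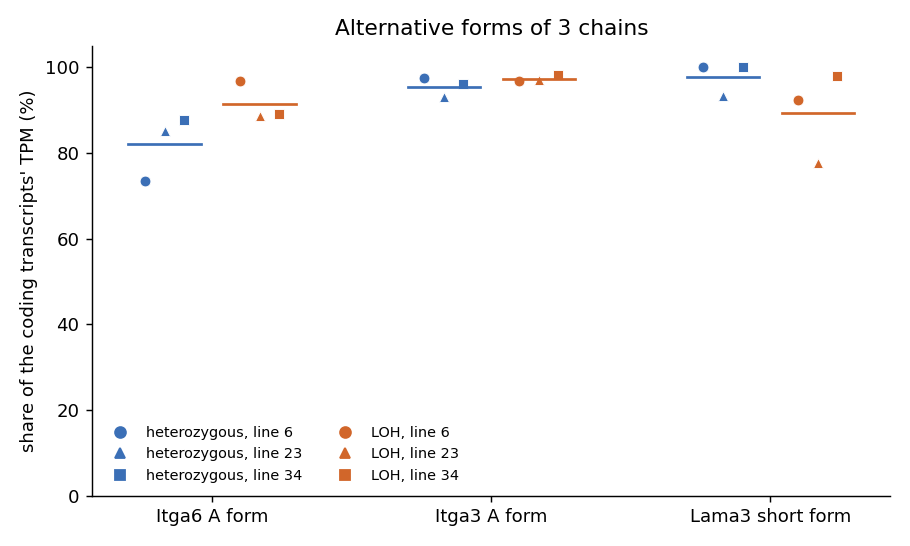
Share of the A form in the TPM of the coding transcripts assigned to the A or B form, for Itga6 and Itga3, in percent, in each library. For Lama3 it is the share of the short form in the TPM of the short and long forms. Coding Itga3-206 is in neither form and is left out. Blue is heterozygous, orange is LOH, the mark's shape gives the line and bars are group means. The A form of Itga6 is the share whose groups do not overlap.

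Itgb6 has 2 annotated starts about which the transcript tables differ. Transcripts from the start nearer to the coding exons, Itgb6-202 and Itgb6-209, took 94.3% to 100% of the TPM of the 4 coding transcripts, and those from the far start the rest. A stretch of 180 bases before each start is shown because 1 start was used and the other nearly not. They run from 250 to 71 bases upstream of the RefSeq starts (GRCm38.p6, minus strand), chr2:60722674-60722853 for the far and chr2:60673764-60673943 for the near start. Capitals mark CG dinucleotides.
Itgb6 far start: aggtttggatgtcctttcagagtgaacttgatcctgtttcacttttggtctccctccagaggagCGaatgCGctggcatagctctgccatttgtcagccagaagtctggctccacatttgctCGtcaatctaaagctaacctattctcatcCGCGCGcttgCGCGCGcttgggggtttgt
Itgb6 near start: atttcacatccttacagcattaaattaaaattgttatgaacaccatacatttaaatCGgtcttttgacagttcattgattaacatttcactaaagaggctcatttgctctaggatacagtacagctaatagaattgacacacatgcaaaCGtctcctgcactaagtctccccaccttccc

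The near start, the one in use, had 2 CG dinucleotides and a GC content of 36.7%, and the far start had 9 and 51.7%. Over 32851 RefSeq windows of the same length the median was 4 CG dinucleotides, with quartiles of 1 and 10. On both strands, neither stretch held GGGCGG, a motif bound by Sp1 that 21.1% of all windows held, or TGANTCA, a motif bound by AP-1 that 4.93% held. No match says only that these letters are not in this window. RefSeq windows were found for 6 of the 9 genes.

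Among the other integrin chains, 9 of 20 were tested, and 1 rose and 0 fell. For this list and those that follow, the shares over all genes tested were 3.55% risen and 1.66% fallen. Itgb5, which also pairs with alpha V, had 7.37, 5.86 and 5.17 CPM in heterozygous and 28.6, 43.2 and 13.5 CPM in LOH cultures (log2 2.21, SE 0.43, adjusted p = 0.0370 in edgeR and 0.0717 with the block). Its groups did not overlap. The median log2 fold change of the 9 was 0.83. Of the chains found mainly on leukocytes, Itgal, Itgax, Itgad, Itgam and Itgb2 were under the filter. Itgae (log2 -0.75, adjusted p = 0.325 in edgeR) and Itgb7 (log2 2.42, adjusted p = 0.0848 in edgeR) were tested and did not pass. Itgb2 had 0, 0 and 1 counts in heterozygous and 2, 13 and 48 in LOH cultures.

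Of 10 genes for hemidesmosomes and integrin-binding tetraspanins, 8 were tested, 1 rose and 1 fell. Cd82, a tetraspanin that associates with integrins, had 14.8, 16.2 and 11.7 against 27.4, 74.7 and 43.9 CPM (log2 1.78, SE 0.38, adjusted p = 0.0448 in edgeR and 0.0885 with the block). Tspan4, another tetraspanin, had 47.2, 46.1 and 56.3 against 25.4, 25.9 and 27.6 CPM (log2 -0.92, SE 0.18, adjusted p = 0.0352 in edgeR and 0.125 with the block). Col17a1, Krt5 and Krt14, hemidesmosomal collagen and basal keratins, had at most 2.0 CPM in all libraries.

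Among 28 focal adhesion proteins, which link beta tails to actin, 27 were tested, 2 rose and 0 fell, with a median log2 fold change of 0.29. Tns4, a tensin that binds beta 1 tails, had 19.7, 23.1 and 53.0 against 137, 120 and 247 CPM (log2 2.40, SE 0.47, adjusted p = 0.0383 in edgeR), and it also passed with the block (log2 2.47, adjusted p = 0.0318 in edgeR). Lims2, an adaptor of integrin-linked kinase, had 0.234, 0.371 and 0.267 against 1.40, 3.59 and 2.42 CPM (log2 3.10, SE 0.51, adjusted p = 0.0267 in edgeR and 0.0609 with the block). Tns4 did not pass without LOH line 23 (adjusted p = 0.0582 in edgeR), without LOH line 34 (0.0608) or without both libraries of line 6 (0.0721). Lims2 rests on 7, 5 and 8 heterozygous counts, passed the filter through LOH cultures, where it is high, and had no value at a minimum of 10 counts in every library.

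Of 16 other integrin ligands, 11 were tested, 1 rose and 2 fell, with a median log2 fold change of -1.08. Tgfb1, whose latent form alpha V beta 6 binds, had 2.20, 2.60 and 1.67 against 5.01, 13.0 and 15.1 CPM (log2 2.36, SE 0.46, adjusted p = 0.0374 in edgeR and 0.0976 with the block). Cyr61, a matricellular ligand, had 45.4, 38.9 and 28.4 against 8.67, 18.7 and 10.7 CPM (log2 -1.56, SE 0.34, adjusted p = 0.0481 in edgeR and 0.0925 with the block). Tnc, tenascin C, was low throughout, on 2 to 4 counts in each LOH library, with 1.13, 1.04 and 0.801 against 0.175, 0.151 and 0.0931 CPM (log2 -2.79, SE 0.47, adjusted p = 0.0275 in edgeR and 0.0885 with the block). It passed the filter through heterozygous cultures, where it is high, and had no value at a minimum of 10 counts in every library, so the size of its fold change is uncertain.

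Called genes were absent from 3 lists in edgeR without a block, a test that called 5.21% of all genes, so lists this short can hold none. Over all genes tested, 25.3% had an unadjusted p under 0.05 in that test, and DESeq2 called 14.2%. The list of basement membrane partners had 13 of 19 genes tested, 0 called, 4 with an unadjusted p under 0.05 and 4 called by DESeq2. The median log2 fold change of the 13 was 0.94, with 8 above 0. The list of other laminin receptors had 6 of 6 tested, 0 called, 2 with an unadjusted p under 0.05 and 1 called by DESeq2, and Bcam, which binds the alpha 5 chain, came nearest with -1.10 (SE 0.26, adjusted p = 0.0571 in edgeR). The proteases had 6 of 8 tested, 0 called, 3 with an unadjusted p under 0.05 and 1 called by DESeq2. Bcam, Lama4, Itgae, Itgb7 and Itgb2 were named after their values were seen.

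Over the 6 libraries, the gene most like each member among 93 genes of these lists was found by Pearson's r of log2 CPM, and it is given for 7 of the 9. It is a description over libraries that share genotype, line and scaling. Lamb3 was most like Thbs1 (r = 0.977) and Lama5 like Tns2 (0.977). Itga6 was most like Cd9 (0.958), Itga3 like Nid1 (0.914) and Itga2 like Tns3 (0.949). Itgb6 was most like Nid2 (0.989) and Itgb4 like Itga3 (0.820).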

How the data were processed

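RNA of 6 organoid cultures was made into stranded total RNA libraries, per the labels' protocols. The submitters' processing notes name FastQC 0.11.5, STAR 2.5.2b, RSEM 1.3.0, DESeq2 1.44.0 and GRCm38.p5, without their roles. The deposited expected counts, which the authors' tables give for genes and transcripts, are estimates with decimals. The deposited TPM values are the authors' abundances per length and depth. The deposited normalized signal, for 23525 genes, was used to match symbols. Effective lengths, another kind of value the authors deposited, served in 1 alternative. The annotation was GENCODE release 16, per the names of the deposited tables, and coordinates came from release 21. The strand setting of the counting is not given in the sources used here, so overlapping genes are named.

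Expected counts were rounded, filtered with filterByExpr, scaled by TMM and tested with edgeR 4.0.16 in R 4.3.3 (quasi-likelihood, two-sided, Benjamini-Hochberg over 14537 genes, threshold 0.05). CPM values use the effective library size. Each standard error is the fold change on the log2 scale over the root of its F statistic. Alternatives were other scalings and filters, the protein-coding genes alone, the organoid line as a block, libraries and lines left out, DESeq2 1.42.0, and limma 3.58.1 on TPM over genes with at least 1 TPM in 3 libraries. Shares and ratios, in percent or as log2, were computed from the deposited TPM and tested by exact permutation with scipy 1.17.1. The fits were tested on simulated data. Totals of 13680458 to 27917277 expected counts per library set the counting error, and the spread over 3 libraries a group sets the error of each comparison.

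By their titles, libraries that share a number stem from the same organoid line and are paired. Their deviations from the group means correlated across genes, which are not independent, at -0.30 in line 6, 0.01 in line 23 and 0.29 in line 34, against -0.39 to 0.30 between lines. No label states a paired model, so the unblocked fit was the main one, although it leaves this pairing out. The exact permutation tests of shares and ratios were unpaired as well. Exact sign flips within lines gave p = 0.25 for Lama3 to Lamb3 and for Lama5 to Lamc1, the smallest that 3 lines allow.

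The members and lists were chosen with earlier results of these data known. Named by rule were the members, Trp53, the chains Itgav, Lamb1, Lamb2 and Lamc1, and from each list up to 4 higher and 4 lower genes that passed with or without the block. Some items of the design, the lists and the ratios are not reported here.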

Additional observations from a re-analysis of the deposited data

Results flagged for a closer look

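Each line has 1 library per genotype, so differences between lines in the effect of genotype were not tested; the values below are the highest minus the lowest line where the lines pointed in opposite directions. For the log2 ratio of LOH to heterozygous CPM this span was 2.42 for Itga2, highest in line 23, 1.73 for Itgb6, also highest in line 23, and 1.66 for Itga6, highest in line 34. It was 1.38 for Lama5, highest in line 23, 1.3 for Itgb4 and 1.22 for Itga3, both highest in line 34, and 0.44 for Itgb1.

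Among partner chains, the log2 ratio of Itgb6 to Itgav spanned 4.04, higher in the LOH library of line 6 and lower in that of line 34. The span was 2.03 for Itga2 to Itgb1, 1.18 for Itga6 to Itgb1 and 0.81 for Itga3 to Itgb1. The share of the Itga3 A form spanned 4.86 percentage points, since it was lower in the LOH library of line 6 alone.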

How the results depend on the processing

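The number of genes called between genotypes depended on the setting, and single libraries decided it. It was 757 without and 213 with the organoid line as a replicate block, 2266 in DESeq2, 1911 in limma on log2(TPM + 1) and 1753 on log2(TPM + 0.1). Leaving out 1 library gave 0 to 2449. It gave 0 without heterozygous line 6, 23 or 34 (2966, 2637 and 2272 genes at an unadjusted p under 0.05), 2449 without LOH line 6 and 451 without LOH line 23. Without both libraries of line 6 it was 1422, and without line 23 or line 34 it was 0 (2253 and 2097 unadjusted). Of the 9 members 0 passed, or 1, Lama3, under upper quartile scaling (edgeR adjusted p = 0.0499), no filter (0.0158), a minimum of 10 counts throughout (0.0477), protein-coding genes alone (0.0497), the block (0.0431), without both libraries of line 6 (0.0389) and in DESeq2. Leaving out 1 library gave 0 to 1 member called, and the 1 was Lama3 without LOH line 6 (0.0163). The log2 fold change of Lama3 stayed between 2.85 and 4.08 when 1 library was left out. The log2 fold changes of Lama5 and Lamb3 kept their sign in all 18 alternatives. Among the other genes named as called, Itgb5, Cd82, Tspan4, Lims2, Tns4, Tnc and Tgfb1 did not pass without LOH line 23 (edgeR adjusted p from 0.0511 to 0.0798), and Cd82, Tspan4, Tns4, Tnc, Cyr61 and Tgfb1 did not without LOH line 34 (0.0506 to 0.0927). Without both libraries of line 6, Itgb5, Tspan4, Tns4, Tnc and Cyr61 did not (0.0506 to 0.0887). Genes called between lines rose from 0 to 52 without a filter and 135 in DESeq2.

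Signs turned for 6 members, none of them called, and the cause was not tested. Itga2 was -0.0097 with the block, -0.75 without line 23, -0.34 and -0.37 in limma on TPM with pseudocounts of 1 and 0.1, and -0.63 to 0.59 with 1 library left out. Itga3 was 0.15 without line 6, 0.14 without line 23 and -0.40 to 0.26 with 1 library left out. Itga6 was -0.087 without line 34 and -0.14 to 0.89. Itgb1 was -0.21 in both limma fits. Itgb4 was -0.27 without line 34, -0.30 and -0.31 in limma, and -0.13 to 0.38. Itgb6 ranged from -0.016 to 0.97. Over all genes the median in limma on log2(TPM + 1) was -0.36.

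With 1 library left out, the log2 difference in ratio ran from -0.75 to 0.31 for Itga2 to Itgb1, -0.50 to 0.076 for Itga3 to Itgb1, -0.23 to 0.52 for Itga6 to Itgb1 and -0.63 to 1.19 for Itgb6 to Itgav. Itga6 to Itgb4 ran from 0.013 to 0.65. Shares ran from 5.09 to 12.2 points for the Itga6 A form, 0.57 to 2.87 for the Itga3 A form and -12.7 to -2.58 for the Lama3 short form. From counts per mean effective length, Itgb6 to Itgav was -0.038. Lama5 to Lamc1 ran from 1.38 to 1.60 and Lama3 to Lamb3 from 1.95 to 3.18. Lama3 was under the TPM filter of the limma fits and had no value there. Lama3 in the heterozygous libraries rests on 22 to 73 counts.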
